A study of Mus musculus with 18 samples.

Results

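The transcripts described here are those of 10 collagen chains, Col1a1, Col1a2, Col3a1, Col5a1, Col5a2, Col11a1, Col6a1, Col6a2, Col6a3 and Col12a1, which were chosen by name and found among the 55487 genes counted, as ENSMUSG00000001506, ENSMUSG00000029661, ENSMUSG00000026043, ENSMUSG00000026837, ENSMUSG00000026042, ENSMUSG00000027966, ENSMUSG00000001119, ENSMUSG00000020241, ENSMUSG00000048126 and ENSMUSG00000032332 in turn. All 10 passed the filter on low counts, with 13865 genes in all. They were measured in mouse embryonic fibroblasts (MEFs), connective tissue cells that secrete matrix, cultured for 24 h in full growth medium with no added uracil (control), 10 µM uracil or 30 µM uracil. Each dose comprised 6 total RNA libraries that the labels number 1 to 6, so that each number occurs once per dose. The labels give no strain, embryonic age or passage for the cells, name no origin for the cultures behind a number, and state no agent other than uracil. The study asked how uracil acts on the matrix that fibroblasts lay down, and the question put to these data was whether collagen transcripts differed with dose.

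Collagens are triple helices of 3 chains that are secreted as procollagens, trimmed at their ends and assembled outside the cell. Types I and III form the bulk of the fibrils of skin, bone and loose connective tissue, types V and XI are minor fibrillar collagens that start fibrils and limit their width, and type XII belongs to the collagens that coat the surface of fibrils. Type VI, built from the chains of Col6a1, Col6a2 and Col6a3, makes beaded microfilaments around cells. Fibroblasts are the main source of types I, III, V and VI in connective tissue, whereas type XI is best known from cartilage.

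On GRCm39, with GENCODE M39 as the annotation, the type I chains are encoded at chr11:94827050-94843868 (Col1a1) and chr6:4504814-4541555 (Col1a2), both on the plus strand. Col3a1 (chr1:45350698-45395840, plus) and Col5a2 (chr1:45412554-45542442, minus) are neighbours that face each other across 16713 bases with no protein-coding gene between them, and Col5a1 lies at chr2:27776397-27929526 (plus). Col11a1 lies at chr3:113824134-114014367 (plus). Col6a1 (chr10:76543440-76562283) and Col6a2 (chr10:76429660-76459549) follow each other on the minus strand, 83890 bases apart with no protein-coding gene between, while Col6a3 stands alone at chr1:90693645-90771780 (minus) and Col12a1 at chr9:79506268-79626135 (minus). Non-coding genes overlap Col1a2, Col3a1, Col5a1, Col11a1 and Col12a1 on the other strand, and whether the counting used strand is not given in the sources used here, so these counts may include reads of those genes. On the same strand, Gm43921 overlaps Col1a2, Gm54819 overlaps Col3a1, Gm38211 overlaps Col5a2 and Gm36970 overlaps Col6a3. The effect of these overlaps on the counts was not tested.

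Libraries held 3963932 to 20775298 gene counts, the lowest 2 being control replicate 1 and 30 µM replicate 6 (7392564), and the others held at least 11600038. Some collagen values stood apart in the library with the most unaligned read pairs of each dose. These 3 libraries were the control numbered 1 (54.2% unaligned), the 10 µM library numbered 6 (5.24%) and the 30 µM library numbered 6 (37.9%), whereas the other 15 had 1.72% to 3.59% unaligned. The study's methods say that 1 control and 1 30 µM sample were left out for human RNA, and neither they nor the labels say which. All 6 samples at 10 µM were kept in the study. Among control and 30 µM libraries, only control replicate 1 and 30 µM replicate 6 had more than 3.59% unaligned. All 18 libraries were kept here, and the main counts are also given without the 3 libraries with the most unaligned pairs of their dose. Vim, which marks mesenchymal cells, was between 4775 and 6186 CPM in every library (gene counts per 1000000 gene counts of the library, scaled by the TMM method). Cdh5 of endothelium, Ptprc of blood cells and Myod1 of muscle averaged 0.074, 0.068 and 0 CPM. Other markers of these cell types were higher, among them Kdr (6.41 CPM), Csf1r (1.04) and Acta1 (21.4). The mesothelial markers Msln and Upk1b averaged 60.3 and 83.9 CPM.

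The members differed widely in level, with the type I chains highest. The 10 genes together took 3.32% to 4.01% of the gene counts in the 15 libraries with few unaligned pairs, and 4.57%, 3.55% and 5.92% in the control, 10 µM and 30 µM libraries just named. Per kilobase of the canonical transcript, the level of Col1a2 was the highest at 1847 ± 219 CPM per kb (SD, n = 18 libraries), followed by Col1a1 at 1659 ± 1071. The type III and V chains came next, with Col5a2 at 787 ± 86.9, Col3a1 at 722 ± 99.0 and Col5a1 at 474 ± 81.8 CPM per kb. Among the remaining chains the level per kb was 274 ± 36.8 for Col6a1, 218 ± 41.6 for Col12a1, 88.7 ± 25.6 for Col6a3, 75.3 ± 9.87 for Col6a2 and 30.8 ± 6.33 for Col11a1. Neighbours in this order whose means differed by no more than the larger of their SDs were Col1a2 and Col1a1, Col1a1 and Col5a2, Col5a2 and Col3a1, and Col6a3 and Col6a2. Over the other 15 libraries Col1a2 (1805 ± 109) lay above Col1a1 (1284 ± 134) in 15 of 15, beyond their SDs. The order rests on the length used, and with the merged exons of all transcripts Col1a1 lay above Col1a2 in 18 of 18 libraries and Col5a1 above Col3a1 in 16 of 18, the other 6 members keeping their place.

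**Figure D1:**
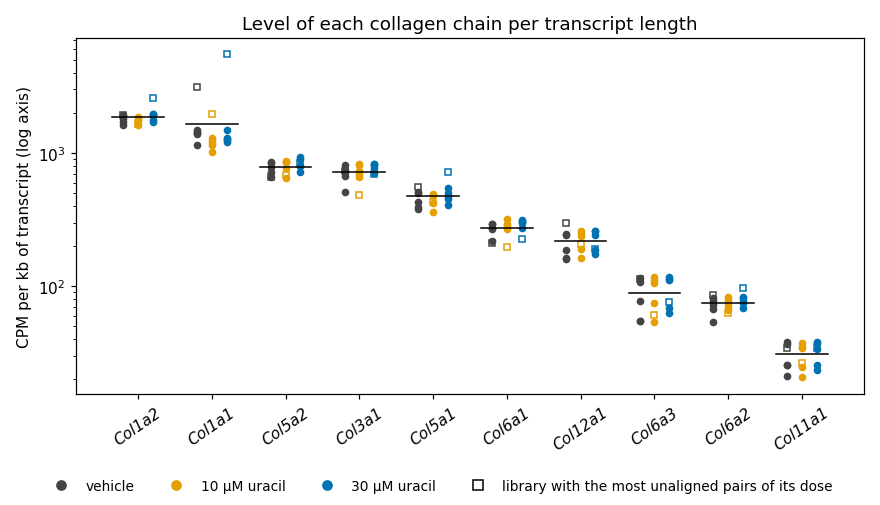
Level of each collagen chain in CPM per kb of canonical transcript on a log axis, with 1 point per library coloured by dose, open squares for the library with the most unaligned pairs of each dose and a line at the mean of 18 libraries. Col1a2 and Col1a1 lie at the top and Col11a1 lies lowest, and for Col1a1 the 3 open squares lie above all 15 filled points.

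Neither dose of uracil was associated with a change in any of the 10 collagen transcripts that passed the test. At 10 µM, 0 of 10 members passed an adjusted p of 0.05 (edgeR's quasi-likelihood test, Benjamini-Hochberg adjustment over 13865 genes), beside 0% of all genes tested. At 30 µM the count was again 0 of 10, beside 0% of all genes. Without adjustment, 0 of 10 members had p under 0.05 at 10 µM and 0 of 10 at 30 µM, where the share among all genes was 0.692% and 4.29%. A test for any difference among the 3 doses called 0 of 10 members, beside 0% of genes, and 0 of 10 without adjustment, beside 1.53%. DESeq2 likewise called none of the 9 members to which it gave an adjusted p, and gave none for Col1a1.

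Col1a1, the main chain of type I collagen, held 1 library in each dose that lay far above the rest. Its level in the 6 controls ran from 6789 over a median of 8381 to 18465 CPM, at 10 µM from 6053 over 7201 to 11695, and at 30 µM from 7160 over 7655 to 32745. In each dose the highest value belonged to the library with the most unaligned pairs, and the ranges of the 3 doses overlapped. Col1a1 differed from control by a log2 fold change of -0.34 ± 0.37 (SE, n = 6 against 6) at the lower dose and 0.27 ± 0.37 at the higher, with adjusted p of 1 and 0.965 (edgeR). The sign at 30 µM turned on single libraries, since leaving out 30 µM replicate 6 gave -0.35, leaving out control replicate 1 gave 0.55, and leaving out the 3 libraries gave -0.080.

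Col1a2, the partner chain, had 1 such library, at 30 µM. The control libraries held 8719 to 10347 CPM (median 9856), those at 10 µM 8747 to 9994 (median 9478) and those at 30 µM 9144 to 13960 (median 10369), the highest value again being 30 µM replicate 6. Against control it gave log2 fold changes of -0.053 ± 0.089 (10 µM) and 0.13 ± 0.089 (30 µM; adjusted p 1 and 0.933), and the 95% interval of the latter was -0.051 to 0.32.

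Col3a1, whose chain makes the homotrimer of type III collagen, stood at 2810 to 4484 CPM in controls (median 4029), 2698 to 4570 at 10 µM (median 3965) and 3895 to 4577 at 30 µM (median 4393). The library at 30 µM was the higher in 5 of 6 numbers, the doses overlapped, and log2 fold changes were 0.010 ± 0.12 (10 µM) and 0.15 ± 0.12 (30 µM, adjusted p 1 and 0.935).

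For type V collagen, Col5a1 was at 3183 to 4666 CPM in controls (median 3919), 3038 to 4189 at 10 µM (median 3837) and 3432 to 6051 at 30 µM (median 4107). The corresponding values of Col5a2 were 4993 to 6404 (median 5664), 4923 to 6576 (median 6105) and 5447 to 6985 CPM (median 6177). Both chains overlapped between doses, with log2 fold changes at 30 µM of 0.16 ± 0.13 for Col5a1 and 0.14 ± 0.094 for Col5a2. Col11a1, a chain of type XI collagen, was at 164 to 294 CPM in controls, 160 to 290 at 10 µM and 181 to 295 at 30 µM, with log2 fold changes of -0.025 ± 0.17 and 0.083 ± 0.17.

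The type VI chains and Col12a1, the fibril-coating member, also overlapped between doses. Col6a1 had a control median of 1119 CPM (858 to 1210), 1166 at 10 µM (814 to 1301) and 1235 at 30 µM (926 to 1291), and Col6a2 had medians of 447 (322 to 513), 430 (375 to 496) and 474 CPM (410 to 582). Col6a3, the longest type VI chain, had medians of 844 (496 to 1048), 822 (489 to 1074) and 850 CPM (572 to 1071), and each dose thus spanned most of the range of the 18 libraries. Col12a1 had medians of 2535 (1910 to 3513), 2655 (1928 to 3080) and 2558 CPM (2053 to 3080). At 30 µM the log2 fold changes were 0.14 ± 0.11 for Col6a1, 0.14 ± 0.11 for Col6a2, 0.074 ± 0.25 for Col6a3 and 0.018 ± 0.16 for Col12a1, with adjusted p between 0.933 and 1 for the 10 members.

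As a list, 10 of 10 members had a log2 fold change above 0 at 30 µM and 5 of 10 at 10 µM, beside 53.5% and 52.7% of all genes tested. The median of the members was 0.14 at 30 µM, beside 0.012 over all genes, and -0.0043 at 10 µM, beside 0.0059. None of these fold changes passed the test, and the 2 doses share their control libraries. The median at 30 µM rested in part on single libraries, being 0.069 without 30 µM replicate 6 (9 of 10 above 0) and 0.088 without control replicate 6 (8 of 10). At 10 µM it ran from -0.075 to 0.054 when 1 library was left out. Without the 3 libraries 0 of 10 members passed at either dose, with an unadjusted p under 0.05 for Col1a1 at 10 µM (log2 fold change -0.22, p 0.0071, adjusted p 0.998) and for Col6a1 at 30 µM (0.14, p 0.0495, adjusted p 0.944). Their median at 30 µM was then 0.11, with 9 of 10 above 0, and at 10 µM it was 0.061, with 8 of 10 above 0. These 15 libraries hold controls numbered 2 to 6 and treated ones numbered 1 to 5. With number in the model the same libraries gave a median of 0.031 at 30 µM (9 of 10 above 0) and -0.026 at 10 µM (3 of 10), Col6a1 at 30 µM was at 0.056 (p 0.212) and Col1a1 at 10 µM at -0.17 (p 0.012, adjusted p 1.00). In bulk RNA, fewer cells that express a gene and less of its RNA per cell cannot be told apart.

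**Figure D2:**
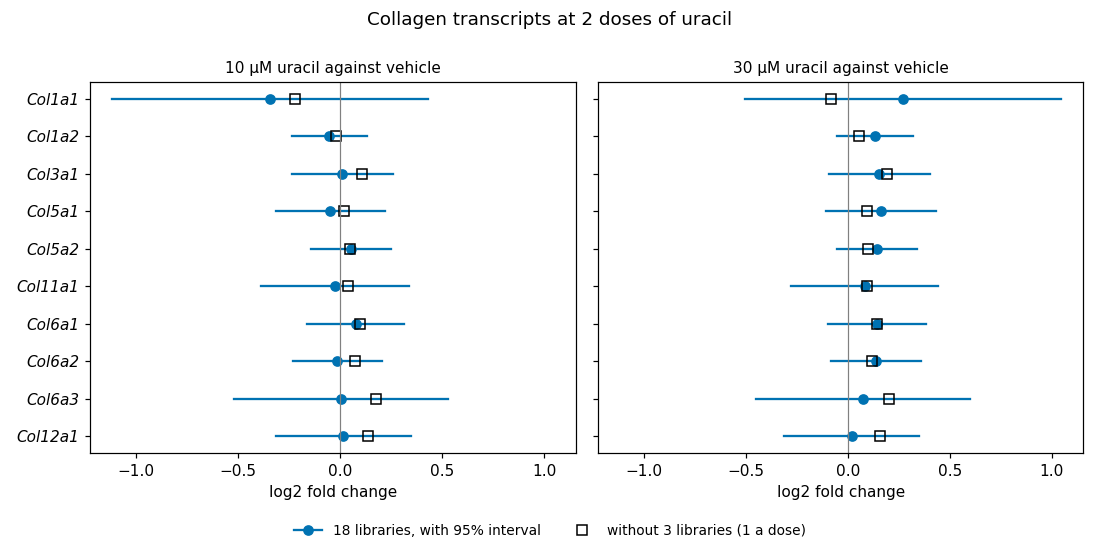
Log2 fold change of each collagen transcript at 10 µM (left) and 30 µM uracil (right) against control, from edgeR with dose as the only term. Points with 95% intervals come from 18 libraries, and open squares leave out the 3 libraries with the most unaligned pairs of their dose. All 20 intervals include 0, and that of Col1a1 is the widest.

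The replicate number, by contrast, went with differences in several of the same transcripts. In a model with dose and number as terms, 4 of 10 members passed an adjusted p of 0.05 for number (edgeR), beside 12.6% of the 13865 genes, namely Col6a3 (adjusted p 4.58e-06), Col11a1 (3.56e-05), Col12a1 (0.000242) and Col3a1 (0.0288). Without adjustment 6 of 10 had p under 0.05, beside 26.4% of genes, the additional ones being Col6a1 (p 0.0147) and Col5a2 (p 0.0314). Col1a1, Col1a2, Col5a1 and Col6a2 did not pass (adjusted p 0.287, 0.896, 0.282 and 0.484). The study's methods call the libraries of a dose biological replicates, and neither they nor the labels say what libraries of 1 number share.

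Col6a3 showed the largest fold between numbers among the 4 members that passed. In control, 10 µM and 30 µM in turn it was at 1028, 1074 and 1009 CPM in number 1, 1048, 1017 and 1071 in number 2, and 984, 966 and 1037 in number 3. It was at 704, 678 and 629 CPM in number 4, 501, 489 and 572 in number 5, and 496, 551 and 692 in number 6. Every library numbered 4, 5 or 6 thus lay below every library numbered 1, 2 or 3, at each dose, and the mean of number 2 (1045 ± 27.1, SD, n = 3) was 2.01-fold that of number 5 (521 ± 44.7). A technical measure split the same way. Read pairs of low alignment quality were 4.79% to 7.17% in numbers 1, 2 and 3 and 7.76% to 13.1% in numbers 4, 5 and 6. The part of this in the differences between numbers was not tested. Number took 94.7% of the variance of log2 CPM of Col6a3 and dose 1.04%, and the coefficient of biological variation fell from 29.9% with dose alone to 9.88% with number in the model, beside 13% and 10.2% for the median of all genes.

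Col11a1 was at 266, 263 and 259 CPM in control, 10 µM and 30 µM of number 1, 294, 290 and 295 of number 2, and 284, 271 and 291 of number 3. It was at 198, 192 and 196 CPM in number 4, 164, 160 and 182 in number 5, and 200, 205 and 266 in number 6. Numbers 4 and 5 were below numbers 1, 2 and 3 at each dose, and in number 6 the 30 µM library, the one with 37.9% unaligned pairs, alone reached their range. The mean of number 2 was 1.74-fold that of number 5, and number took 92.0% of the variance.

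Col12a1 was at 3513, 3080 and 3072 CPM in number 1, 2919, 2961 and 3080 in number 2, and 2846, 2843 and 2854 in number 3, again in the order control, 10 µM and 30 µM. It was at 2225, 2241 and 2228 CPM in number 4, 1942, 1928 and 2053 in number 5, and 1910, 2467 and 2263 in number 6. The libraries of numbers 3 and 4 agreed closely across doses, with SDs of 5.52 and 8.33 CPM, while their means, 2847 and 2231, differed by much more. Number took 92.2% of the variance of Col12a1 and dose 0.359%.

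Col3a1 was lowest in number 6. Its mean was 4392 ± 266 CPM (SD, n = 3) in number 1, 4516 ± 51.2 in number 2, 4035 ± 205 in number 3, 4047 ± 77.7 in number 4, 3987 ± 512 in number 5 and 3134 ± 661 in number 6. In number 6 the control held 2810, the 10 µM library 2698 and the 30 µM library 3895 CPM. This call was lost (adjusted p 0.0544 to 0.223) when any 1 of these libraries was left out, control replicates 2 (0.0762), 3 (0.0549), 5 (0.0821) and 6 (0.075), 10 µM replicates 2 (0.0766), 3 (0.0586), 4 (0.0564), 5 (0.0726) and 6 (0.223), and 30 µM replicates 2 (0.063) and 3 (0.0544). The calls of Col6a3, Col11a1 and Col12a1 held without any 1 library, with adjusted p of at most 0.00175.

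For the members that did not pass, number took 36.7% (Col1a1), 10.7% (Col1a2), 41.6% (Col5a1), 57.4% (Col5a2), 60.9% (Col6a1) and 33.4% (Col6a2) of the variance of log2 CPM. Splitting 18 libraries into 6 numbers takes some share even where numbers do not differ, and these shares were not corrected for that. Without control replicate 1, Col5a2 (adjusted p 0.0203) and Col6a1 (0.000594) passed, and Col6a1 did so without 10 µM replicate 1 (0.0424). Without 30 µM replicate 6, Col5a1 (0.0288) and Col6a2 (0.00551) passed, and without control replicate 6, Col1a1 (0.0419). Leaving out the 3 libraries with the most unaligned pairs brought the count to 8 of 10, all but Col1a1 (0.142) and Col1a2 (0.133), with number 6 then held by its control alone. Each taken alone, number then took 51.6% of the variance of Col1a1 and dose 37.9%. These shares can overlap, since control and treated libraries then no longer held the same numbers.

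**Figure D3:**
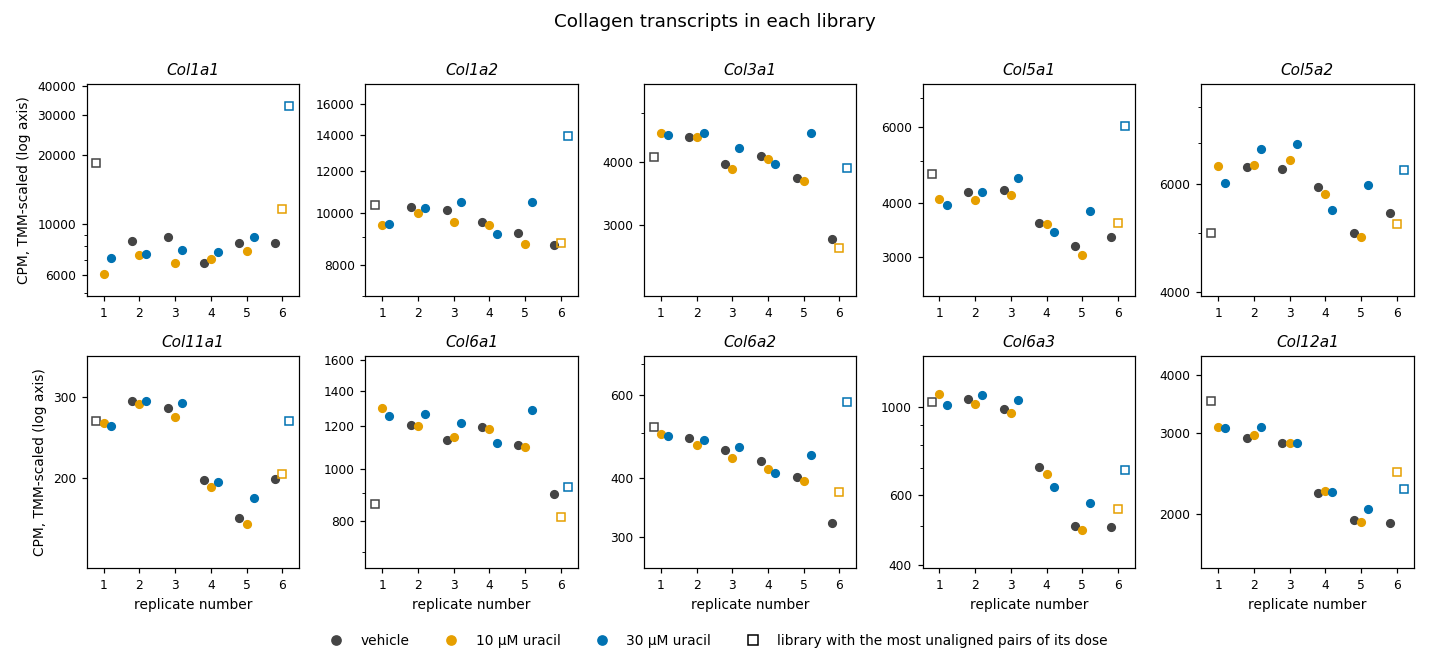
CPM of each collagen transcript (log axis) against replicate number, with 1 point per library coloured by dose and open squares for the library with the most unaligned pairs of each dose. Libraries of the same number lie close together for Col6a3, Col11a1 and Col12a1, with number 5 lowest or close to it, whereas the open squares of Col1a1 reach 11695, 18465 and 32745 CPM.

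Promoters are printed for Col6a3, Col11a1 and Col3a1, which passed for number, and for Col1a2, which did not. Col12a1, which also passed, had no promoter entry. The 4 promoters come from RefSeq on GRCm38.p6, from 250 bases before to 50 bases after the annotated start. They were read from chr1:90843922-90844221 (minus strand), chr3:114030290-114030589 (plus), chr1:45311288-45311587 (plus) and chr6:4505368-4505667 (plus). Capitals mark 4 short motifs searched on both strands, namely the CCAAT box, the TATA box as TATAAA, the GC box as GGGCGG and the motif of TEAD factors as CATTCC.
Col6a3: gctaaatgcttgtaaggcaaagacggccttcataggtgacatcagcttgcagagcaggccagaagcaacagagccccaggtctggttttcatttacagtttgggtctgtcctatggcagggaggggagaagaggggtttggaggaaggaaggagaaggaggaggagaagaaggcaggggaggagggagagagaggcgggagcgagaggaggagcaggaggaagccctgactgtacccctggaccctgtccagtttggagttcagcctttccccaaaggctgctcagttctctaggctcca
Col11a1: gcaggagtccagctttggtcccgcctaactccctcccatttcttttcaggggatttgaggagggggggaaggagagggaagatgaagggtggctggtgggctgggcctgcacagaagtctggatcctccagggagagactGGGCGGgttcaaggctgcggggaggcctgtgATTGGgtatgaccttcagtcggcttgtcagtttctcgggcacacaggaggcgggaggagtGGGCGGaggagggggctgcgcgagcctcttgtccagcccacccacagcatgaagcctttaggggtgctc
Col3a1: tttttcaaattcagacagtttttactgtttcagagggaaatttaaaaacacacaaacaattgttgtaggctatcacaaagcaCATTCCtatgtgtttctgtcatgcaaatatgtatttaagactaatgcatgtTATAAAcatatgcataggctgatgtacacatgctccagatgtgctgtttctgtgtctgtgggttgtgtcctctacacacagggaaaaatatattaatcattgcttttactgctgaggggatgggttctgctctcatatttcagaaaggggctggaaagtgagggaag
Col1a2: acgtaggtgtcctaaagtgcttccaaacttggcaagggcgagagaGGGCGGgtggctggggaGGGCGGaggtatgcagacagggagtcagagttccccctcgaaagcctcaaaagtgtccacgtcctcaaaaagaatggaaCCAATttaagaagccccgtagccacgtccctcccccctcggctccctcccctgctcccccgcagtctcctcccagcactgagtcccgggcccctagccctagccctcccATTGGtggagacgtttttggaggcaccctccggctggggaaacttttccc
Col6a3 held none of the 4 motifs in this window and Col11a1 held 1 CCAAT and 2 GC boxes. Col1a2, which did not pass for number, held 2 CCAAT and 2 GC boxes, and Col3a1 held 1 TATAAA and 1 CATTCC. Over all 32851 promoters of the same length the shares with a motif were 37.4% for CCAAT, 13.6% for TATAAA, 35.7% for GGGCGG and 14.7% for CATTCC, and among the members' promoters 1 pair of matches overlapped, in Col6a2. The GC content of the window was 56.3% in Col6a3, 62.3% in Col11a1, 61.0% in Col1a2 and 37.7% in Col3a1, beside a median of 52.7% over all promoters. These matches are a description of letters, and 7 of 10 members had an entry in the table.

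Ratios of 2 chains within a library need no scaling of library size. None of the 5 ratios tested differed from control at either dose (10 comparisons, two-sided exact permutation of 6 against 6 libraries, lowest p 0.372, adjusted p 0.965 for every comparison, smallest p possible 0.00216). The Col1a1 to Col1a2 count ratio had a geometric mean of 0.959 in controls, 0.813 at 10 µM and 0.93 at 30 µM. That of Col5a1 to Col5a2 was 0.682, 0.639 and 0.685, and that of Col6a1 to Col6a2 was 2.45, 2.59 and 2.45. The SDs of the log2 ratios, up to 0.66 for Col1a1 to Col1a2 and 0.93 for Col3a1 to Col1a1, were wide because of the 3 libraries named above.

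In those libraries several ratios left the range of the other 15. Col1a1 to Col1a2 was 0.638 to 0.953 in the 15 libraries, but 1.79, 1.33 and 2.35 in the control, 10 µM and 30 µM libraries set apart. Col5a1 to Col5a2 kept within 0.605 to 0.677 in the 15, the narrowest of the 5 ratios, and was 0.935, 0.696 and 0.957 in the 3. Col6a1 to Col6a2, from neighbouring genes, was 2.46 to 2.88 in the 15 and 1.67, 2.17 and 1.59 in the 3. Col6a3 to Col6a1 was above its range of 0.443 to 0.871 in the control (1.2) and inside it in the 10 µM and 30 µM libraries (0.677 and 0.747). In level, Col1a1 was above the range of the 15 in all 3 libraries (2.43-, 1.54- and 4.31-fold their median), whereas Col6a1 was below it in the control and 10 µM ones (0.717- and 0.68-fold) and inside it in the 30 µM one. These libraries also had the highest share of pairs outside genes (9.73%, 13.3% and 15.6%, against 6.85% to 8.66% in the others). Runx2, a transcription factor of the osteoblast lineage, was also higher in them, at 51.7, 42.4 and 52.5 CPM against 11.8 to 22.9 in the other 15. The 7 osteoblast markers summed to 53.9, 43.7 and 54.3 CPM against 12.9 to 24.5, nearly all of it Runx2. Bglap, Ibsp and Sp7 of mature or committed osteoblasts averaged 0.01, 0.0391 and 0.102 CPM over all libraries. Sox9 of the chondrocyte markers was at 21.0, 9.45 and 14.1 CPM in the 3 libraries, against 4.02 to 9.55 in the 15. Prrx1 of the fibroblast markers was at 417, 249 and 214 CPM, against 150 to 221. The part of unaligned reads or of other cell types in these values was not tested.

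Across replicate numbers, 1 of 5 ratios differed, that of Col6a3 to Col6a1 (permutation of the F statistic over 100000 permutations, p 1e-05, the smallest they can give, adjusted p 5e-05). Its geometric mean was 0.927, 0.853 and 0.855 in numbers 1, 2 and 3, and 0.574, 0.446 and 0.654 in numbers 4, 5 and 6, so that the type VI chains did not keep 1 ratio between numbers. Within numbers the ratio was tight outside the 3 libraries, with number taking 99.8% of its variance over 15 libraries. The ratio of Col3a1 to Col1a1 did not pass (adjusted p 0.0683), nor did Col6a1 to Col6a2 (0.227), Col1a1 to Col1a2 (0.214) and Col5a1 to Col5a2 (0.231). Without the 3 libraries Col3a1 to Col1a1 (adjusted p 0.00385) and Col6a1 to Col6a2 (0.00802) passed too, the former with 0.69 in number 1 and 0.338 in the single library of number 6, the latter between 2.55 and 2.81 in all numbers. Without control replicate 1 alone 3 ratios passed, those of Col6a3 to Col6a1, Col1a1 to Col1a2 (0.0136) and Col3a1 to Col1a1 (0.0136).

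**Figure D4:**
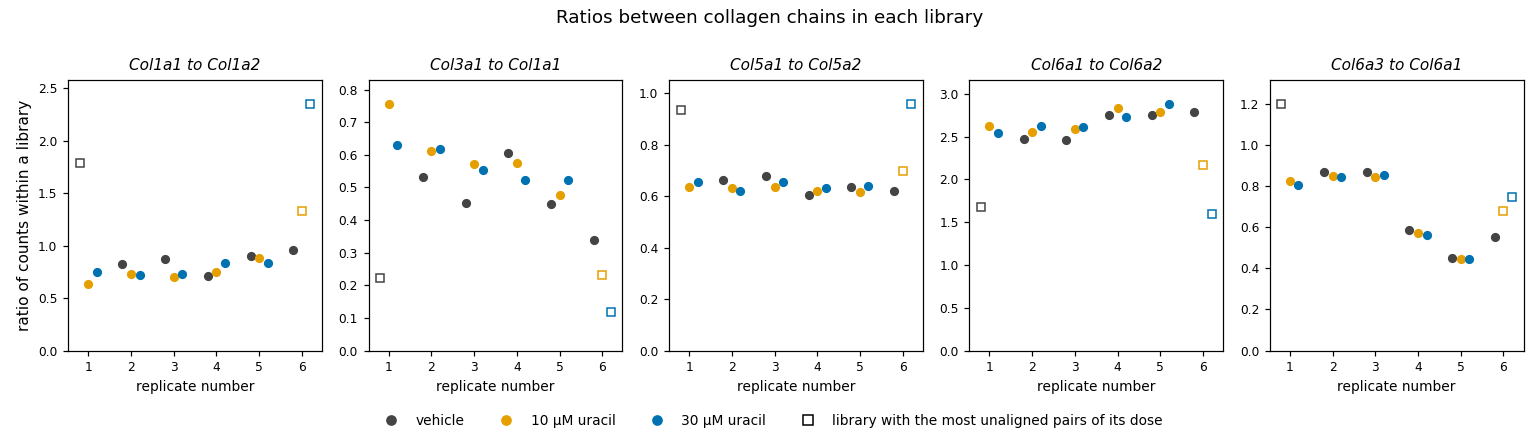
Ratio of the counts of 2 collagen chains within each library against replicate number, coloured by dose, with open squares for the library with the most unaligned pairs of each dose and axes that start at 0. Filled points of Col5a1 to Col5a2 lie between 0.605 and 0.677 in every number, while those of Col6a3 to Col6a1 are lower in numbers 4, 5 and 6.

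The correlation of the paired chains over the 6 number means of log2 CPM passed in 0 of 5 pairs (exact permutation of 720 pairings, n = 6 numbers, adjusted over 5). For Col5a1 and Col5a2 Pearson's r was 0.71 (exact permutation p 0.0958, adjusted 0.281) and Spearman's rho 0.89 (p 0.0333, adjusted 0.167), with r of 0.57 without the 2 farthest numbers. For Col6a1 and Col6a2 r was 0.43 and rho 0.37 (exact p 0.461 and 0.497, adjusted 0.461 and 0.497), and r was -0.89 without the 2 farthest numbers. The other pairs gave r of 0.50 and rho of 0.49 for Col1a1 and Col1a2 (exact p 0.347 and 0.356, adjusted 0.461 and 0.444), -0.83 and -0.54 for Col3a1 and Col1a1 (exact p 0.113 and 0.297, adjusted 0.281 and 0.444), and 0.46 and 0.49 for Col6a3 and Col6a1 (exact p 0.429 and 0.356, adjusted 0.461 and 0.444). Without the 2 farthest numbers these r were 0.09, 0.74 and 0.03. The value of Col6a1 and Col6a2 and that of Col3a1 and Col1a1 thus changed sign with the numbers left out. Without the 3 libraries, r was 0.99 for Col5a1 and Col5a2 and 0.97 for Col6a1 and Col6a2 (adjusted exact p 0.0104 for both), and 0.72 for Col6a3 and Col6a1 (0.0139). By Spearman's rho 4 of 5 pairs then passed, the same 3 (1, 0.94 and 0.89, adjusted exact p 0.0139, 0.0278 and 0.0417) and Col3a1 and Col1a1 (-0.94, 0.0278). Without the 2 farthest numbers r was then 0.99, 0.79 and 0.58, and -0.11 for Col3a1 and Col1a1.

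No other gene of collagen assembly tested passed for dose. Of the 5 other fibril-forming collagen genes, 0 passed at either dose, as did 0 of the 2 tested among 12 other fibril-coating and type VI collagens, 0 of 14 tested genes of procollagen export and propeptide cleavage, and 0 of 10 collagen receptors. Median log2 fold changes at 30 µM were 0.11, 0.16, 0.098 and 0.0066 in these lists, beside 0.012 over all genes. For number, 3 of 5, 0 of 2, 4 of 14 and 4 of 10 passed in the same order, beside 12.6% of genes. Of the 12 other fibril-coating and type VI collagens 9 were below the filter, among them Col6a4 at 0.4 CPM and Col14a1 at 0.223 CPM, and Col21a1 was not analysed here.

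In each list the genes with the smallest p for number are given in their ranges over the 18 libraries. Col2a1, the main cartilage collagen, ranged from 3.75 to 32.9 CPM (adjusted p 6.22e-07), and Col5a3, the third type V chain, from 36.6 to 139 CPM (0.00011). Adamts2, which removes the amino-terminal propeptides of procollagens, ranged from 45.3 to 84.9 CPM (6.7e-05), and Tll1, a protease related to the carboxy-terminal propeptidase Bmp1, from 60.4 to 96.2 CPM (0.00138). The collagen-binding integrin chains Itga1 and Itga11 ranged from 5.42 to 25.6 CPM (1.1e-07) and from 68.5 to 127 CPM (2e-05). Col16a1 and Col20a1, the 2 tested fibril-coating collagens, did not pass (adjusted p 0.95 and 0.553).

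Marker genes of fibroblasts and of other cells moved with number as well. The 6 mesothelial markers summed to 118 to 168 CPM in numbers 1, 2 and 3 and to 275 to 401 CPM in numbers 4, 5 and 6, and 6 of 6 passed for number. Of 9 tested fibroblast markers 5 passed. The sum of the fibroblast list lay between 5406 and 6909 CPM, but most of it was Vim, which did not pass. Among those that passed, Lum ranged from 0.252 to 12.4, Postn from 56.0 to 224 and Dcn from 40.5 to 225 CPM over the 18 libraries. Chondrocyte markers, Col2a1 among them (4 of 8 tested, 2 passing), summed to 29.9 to 61.7 CPM in numbers 1, 2 and 3 and 13.9 to 29.6 in numbers 4, 5 and 6, with the defining markers Cnmd listed at 0 in 18 libraries and Matn1 in 17. Epithelial markers (2 of 6 tested, Krt14 passing) summed to 4.58 to 8.08 CPM in numbers 1, 2 and 3 and 15.3 to 34.9 in numbers 4, 5 and 6. Of the 2 tested endothelial, 2 immune and 1 osteoblast markers 0 passed for number, and of 2 tested muscle markers Acta1 passed, with Myod1 at 0 throughout. The part of any such cells in the collagen values was not tested. No marker passed for dose, and the mesothelial sums at 0, 10 and 30 µM had medians of 227, 222 and 225 CPM.

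Between members, the correlation of log2 CPM over 18 libraries, which share their library totals, was highest for Col6a3 and Col12a1 (r = 0.94), Col6a3 and Col11a1 (0.92) and Col1a2 and Col5a1 (0.90), and lowest for Col1a1 and Col6a1 (-0.68). Over the 15 libraries with few unaligned pairs it was 0.99 for Col6a3 and Col12a1, 0.97 for Col5a1 and Col5a2 and 0.97 for Col3a1 and Col6a1, and Col1a1 had r of at most 0.18 with any other member.

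Among 13269 other genes, the 2 with the pattern most like each member over 18 libraries are given by the same measure. Col1a1 was most like Pcnx3 (r = 0.99) and Tnrc18 (0.989), Col1a2 like Epn1 (0.921) and the fibril-forming Col27a1 (0.916), and Col3a1 like Col8a2 (0.956), a chain of the sheet-forming type VIII collagen, and Itm2c (0.927). Col5a1 was most like Col27a1 (0.938) and Jph2 (0.935), Col5a2 like Qsox1 (0.958), a disulphide-forming oxidase, and the actin-severing Gsn (0.955), and Col11a1 like Col5a3 (0.971) and Rap1gap2 (0.964). For type VI the nearest were Pfkp (0.954) and H2-D1 (0.951) for Col6a1, Nfatc4 (0.92) and B4galt5 (0.917) for Col6a2, and Oaf (0.968) and Chst2 (0.967) for Col6a3. Col12a1 was most like Ctxnd1 (0.98) and Fndc1 (0.961). Of these 20 pairs 4 were also among the nearest 2 over 15 libraries, those of Col1a1 with Tnrc18, Col3a1 with Col8a2, Col11a1 with Col5a3 and Col6a3 with Oaf.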

How the data were processed

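The authors deposited raw counts per Ensembl gene, whole numbers with no normalisation, for 18 MEF libraries. Per the labels, libraries were stranded, depleted of ribosomal RNA and read as pairs, and the submitters' processing notes name FastQC, HISAT2, SAMtools 1.2, HTSeq and the human build GRCh38, although all genes are mouse. The mouse build, annotation release and strand setting are not given in the sources used here. Pairs assigned to no gene entered neither library sizes nor tests. They were 6.85% to 15.6% outside genes, 0.504% to 1.64% ambiguous, 4.79% to 13.1% of low quality, 1.72% to 54.2% unaligned and 5.59% to 20.2% aligned to several places. Of 55487 genes, 51731 were named by GENCODE M39. 0 columns matched no sample.

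Models were fitted with edgeR 4.0.16 under R 4.3.3 (filterByExpr, TMM, robust quasi-likelihood F tests, dose as the only term or dose and number, Benjamini-Hochberg over all genes tested, threshold 0.05). Intervals and SEs come from the same fits, and log2 CPM used a prior count of 2. Tests were two-sided except F tests, and statistics were checked on simulated data. Chain ratios and correlations were tested by permutation in Python 3.11.15. Alternatives were DESeq2 1.42.0, other scalings, no filter, a replicate block and leaving out libraries. The order per merged exon length and likeness over 15 libraries were chosen after seeing the data. Members and gene lists were chosen with earlier results of these data known. The 10 members are always named, with list genes past the threshold for dose, the 2 of each list with the smallest p for number, and the 2 genes most like each member with a mean of at least 1 CPM. Promoters came from RefSeq on GRCm38.p6. Precision at these depths is set by the spread between libraries, since members held at least 989 counts in each library.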

Additional observations from a re-analysis of the deposited data

Results flagged for a closer look

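Of 45 sets of 6 libraries of 1 dose (10 members and 5 chain ratios), 13 held a value whose gap to the nearest other library exceeded Dixon's 95% critical share of the range, which chance meets in about 1 in 20 sets. All 13 fell in 3 libraries, the control numbered 1, the 10 µM library numbered 6 and the 30 µM library numbered 6. For Col1a1 the values were 18465, 11695 and 32745 CPM, with the nearest library of the same dose at 8788, 7678 and 8770 CPM. Col1a2 was at 13960 CPM in 30 µM replicate 6, the nearest being 10506 CPM.

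The count ratio of Col1a1 to Col1a2 was 1.79, 1.33 and 2.35 in the 3 libraries in turn (nearest 0.953, 0.878 and 0.835), and that of Col5a1 to Col5a2 was 0.935, 0.696 and 0.957 (nearest 0.677, 0.637 and 0.657). Col3a1 to Col1a1 was 0.119 in 30 µM replicate 6 (nearest 0.521). Col6a1 to Col6a2 was 1.67 in control replicate 1 and 1.59 in 30 µM replicate 6 (nearest 2.46 and 2.54). These libraries had the most unaligned pairs of their dose, and the part of that in the values was not tested.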

How the results depend on the processing

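For dose, 0 of 10 members and 0 genes in all passed under every alternative (lowest adjusted p of a member 0.656, with the replicate block). DESeq2 gave no adjusted p for Col1a1. The order of levels per kb and the genes most alike, each tried in 1 way only after seeing the data, are given in the text.

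For replicate number, 8 members and 3287 genes passed without control replicate 1 and 30 µM replicate 6, 8 members and 2890 genes without these and 10 µM replicate 6, and 2989 genes under DESeq2 (6 members), against 4 and 1745. Leaving out 1 library gave 3 to 6 members and 1272 to 3498 genes. Without the 3 libraries 3 chain ratios (1 to 3 when 1 library was left out) and 3 correlations by Pearson's r (4 by Spearman's rho) passed, against 1 and 0. The cause of these differences was not tested.

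Fold changes turned sign in 52 of 540 alternatives. Without control replicate 1 and 30 µM replicate 6 the log2 fold change was 0.013 for Col5a1, 0.014 for Col11a1 and 0.039 for Col6a2 at 10 µM, and -0.076 for Col1a1 at 30 µM. Without the 3 libraries it was 0.019, 0.040 and 0.072, and -0.080. For Col6a2 at 10 µM it was 0.0042 with library totals alone and 0.0081 with no filter. With the replicate block and without the 3 libraries it was -0.0083 for Col3a1 and -0.025 for Col6a3 at 10 µM and -0.030 for Col1a1 at 30 µM. Leaving out 1 library gave -0.066 to 0.10 for Col3a1, -0.091 to 0.011 for Col5a1, -0.10 to 0.065 for Col11a1, -0.087 to 0.034 for Col6a2, -0.10 to 0.12 for Col6a3 and -0.055 to 0.12 for Col12a1 at 10 µM, and -0.35 to 0.55 for Col1a1, -0.030 to 0.17 for Col6a3 and -0.052 to 0.13 for Col12a1 at 30 µM. Log2 ratios turned in 28 of 200 alternatives. For Col6a3 to Col6a1 the difference was 0.087 at 10 µM and 0.075 at 30 µM without the 3 libraries, and r of Col1a1 and Col1a2 was -0.24. With 1 library left out, the ratio differences at 30 µM were -0.31 to 0.14 for Col1a1 to Col1a2, -0.093 to 0.46 for Col3a1 to Col1a1, -0.090 to 0.098 for Col5a1 to Col5a2, -0.11 to 0.13 for Col6a1 to Col6a2 and -0.18 to 0.098 for Col6a3 to Col6a1, and at 10 µM -0.031 to 0.13 for Col6a1 to Col6a2 and -0.20 to 0.084 for Col6a3 to Col6a1.

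The main fits did not take the numbers to pair the libraries. With the replicate block the SE of the log2 fold change at 30 µM was 0.071 for Col6a3, 0.060 for Col11a1 and 0.065 for Col12a1. In the main fit these SEs were 0.25, 0.17 and 0.16. The SE of Col1a2 went from 0.089 in the main fit to 0.092 with the block. Over genes, the correlation of deviations from the dose means between libraries of the same number was above 0.1 in 16 of 18 pairs (-0.10 to 0.71), and 5 of 18 libraries correlated best with their own number in both other doses. With the replicate block 0 members passed for dose, and the log2 fold change of Col1a1 at 30 µM was 0.051. Before adjustment 1 of 10 members then had p under 0.05 at 30 µM (edgeR), beside 937 of 13865 genes. It was Col3a1 (log2 fold change 0.17, p 0.040, adjusted p 0.656). Paired by number, 0 chain ratios passed. Sign flips over 6 numbers can give no p under 0.0312, which left little room to pass after adjustment. At this number of libraries, the upper 95% limit of the log2 fold change at 30 µM in the main fit was 0.32 for Col1a2 and 1.05 for Col1a1.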
